A study of Mus musculus with 4 samples.

Results

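Histone transcripts were examined in poly(A)-selected RNA of mouse embryonic stem cells (ESCs) with and without knockdown of Ythdf2. Genes were chosen by name, as every gene whose symbol began with a histone prefix (Hist1h to Hist4h, H1f, H2a followed by c, f, j, l, w, x or z, H2b followed by c, f or u, H3c, H3f, H4c or H4f). This gave 105 histone genes of the 49997 genes counted. Of these, 64 were replication-dependent genes of the histone clusters, 33 were variant genes, 7 were pseudogenes and 1, H2bfm, could not be placed in either class from its name. The variants were split further into 9 genes of somatic cells and 24 genes known from germ cells. Members of the variant family whose symbols begin otherwise (macroH2A and CENP-A) were kept outside the 105 and are given as companions.

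The cells were of the E14 line, a pluripotent line from the early mouse embryo, grown on gelatin with LIF and serum replacement. The study describes its ESCs as holding a tdTomato transgene under the promoter of the retrovirus MERVL. All carried a lentiviral short hairpin RNA (shRNA) and were kept as stable lines under puromycin, so the control cells shared the vector and the drug. In shScramble the hairpin was a scrambled sequence and in shYthdf2 it was directed at Ythdf2, with 2 libraries per group. The labels do not say which of the hairpins listed by the study a shYthdf2 library carried, nor whether both carried the same one. Libraries held from 31113006 to 36422510 counted reads. Ythdf2 itself had 3365 and 2760 reads with the scrambled hairpin and 1086 and 1082 after knockdown, a log2 fold change of -1.55 (SE 0.11, adjusted p = 6.9e-04 in edgeR). The defining ESC markers Pou5f1, Sox2, Nanog and Zfp42 were all abundant. In CPM, counts scaled to a common library total, the 8 ESC markers summed to 6098 and 5986 in shScramble and to 5684 and 5243 in shYthdf2. Of the 8, 6 had a negative and 2 a positive log2 fold change. Tdgf1 was called lower (log2 fold change -0.47, adjusted p = 0.041 in edgeR). In the 2C-like state a few ESCs express genes of the 2-cell embryo. Markers of this state summed to 53.5 and 81.6 CPM in shScramble and to 105 and 269 CPM in shYthdf2. Summed germ cell markers stood at 450 and 350 CPM in shScramble and at 321 and 192 CPM in shYthdf2. Most of the germ cell sum was Dazl alone, at 393 and 280 CPM in shScramble and 277 and 151 CPM in shYthdf2. The part of these cell states in the histone values was not tested, and in bulk RNA fewer cells of a type and less RNA per cell cannot be told apart.

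Replication-dependent histone genes supply the bulk of nucleosome protein in S phase. They lie in clusters, mostly lack introns, and their mRNAs end in a conserved stem-loop that is bound by SLBP instead of a poly(A) tail. Variant genes such as H2az1 or H3f3a are scattered, are expressed outside S phase too and give ordinary polyadenylated mRNA. The libraries therefore hold only those cluster transcripts that passed the poly(A) selection.

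The stem-loops of well-read cluster genes with a match are shown first, since this is the feature that sets them apart from other mRNAs. The sequences came from GENCODE transcripts (release M21, GRCm38, which is the mm10 build of the counts), are written 5′ to 3′ as DNA on the gene's strand, and carry the 16-base stem-loop in capitals.
H1f2, chr13:23739507-23739532, plus strand: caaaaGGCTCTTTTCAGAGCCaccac
H2ac8, chr13:23570663-23570688, minus strand: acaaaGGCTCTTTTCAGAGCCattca
H3c8, chr13:23535884-23535909, plus strand: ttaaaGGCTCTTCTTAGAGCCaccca
H3c3, chr13:23745042-23745067, minus strand: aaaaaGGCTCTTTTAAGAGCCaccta
H4c9, chr13:22040961-22040986, minus strand: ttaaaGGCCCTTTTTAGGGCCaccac
The form seen in H1f2 and H2ac8 was the commonest and was found in 24 cluster genes of the H1, H2A, H2B and H3 families. The form with GGCCC in place of GGCTC was found only in H4 genes among the members, 7 of them with the loop and stem of H4c4, whose window read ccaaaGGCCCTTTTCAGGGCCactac on chr13:23581945-23581970, plus strand. The histone stem-loop pattern was present in 44 of the 63 cluster genes that could be matched to a GENCODE transcript, against 1.98% of 58797 protein-coding transcripts. Of the 19 cluster genes without a match, 17 had a GENCODE transcript that ended before the counted end, so the stretch where a stem-loop would lie was often not in the sequence searched. The others were H2bc21 and H2bc4, the best-read cluster gene. The share over all protein-coding transcripts covers every transcript of a gene, whereas for each member only the longest GENCODE transcript was searched. The longest transcript of H2bc4 was 1156 bases long and ran 428 bases past the last counted base. The end of its earlier counted interval, at 23684667, may thus not have been in the sequence searched. In 42 of the 44, the counted exon ended 4 to 8 bases past the stem-loop, so reads from RNA that continued beyond this point were counted only as far as that end.

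Some cluster genes also have a longer annotated transcript. For 21 of the 63, GENCODE listed a transcript running more than 100 bases past the last counted base, and for 10 of these 21 a poly(A) signal (AATAAA or ATTAAA) lay in the final 50 bases. H1f2 and H4c9 were both among the 10. The H1f2 transcript was 1560 bases long, with 836 of them past the 725 bases counted. The signals of these genes and of H3f3a, a variant, are shown with the hexamer in capitals.
H1f2, chr13:23740338-23740361, plus strand: ttctAATAAAaagcgtttagtttt
H4c9, chr13:22040637-22040660, minus strand: ttacATTAAAagtattctatgcta
H3f3a, chr1:180800834-180800857, minus strand: aaatAATAAAagtaccaatagaag
A signal near the transcript end was found in 15 of 63 cluster genes (23.8%), in 7 of the 8 somatic variants with a match (87.5%) and in 50.2% of all protein-coding transcripts. Each member was again read from its longest transcript only, unlike the share over all transcripts. For cluster genes whose GENCODE transcript ended before the counted end, the search for a signal stopped short as well. H2ax held a stem-loop match 822 bases before its counted end as well as the signal ATTAAA near its end, in the window ttttATTAAAggatcgtttggttt (chr9:44336039-44336062, plus strand). H1f0 also held a stem-loop match, 1453 bases before its counted end, and a signal near its end. Levels are given in RPKM, reads per kb of counted exon scaled to the library total. The 10 cluster genes with a longer transcript and a signal had a median level of 0.53 RPKM, with a range from 0 to 7.93. The other 53 had a median of 0.346, with a range from 0.0143 to 11.1. The ranges overlapped over most of their width.

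Promoters of the cluster genes were read from RefSeq windows of 250 bases before to 50 bases after each start (GRCm38), which covered 91 of the 105 members. The octamer ATTTGCAT, searched on both strands, is a known element of H2B promoters and was present in 6 of 14 cluster H2B windows and 6 of 17 H2A windows, in 0 of the 5 H1, 10 H3 and 12 H4 windows, and in 1.74% of all 27025 promoters. Part of the H2A count was the same octamer read from the other side, because H2A and H2B genes are often paired head to head. The pair H2ac8 and H2bc8 shared 1 octamer between them, as did H2ac12 and H2bc12, and the octamer counted for H2ac6 lay with its window 100 bases upstream of the first counted base of H2bc4, a gene with no promoter window of its own here. The octamer is in capitals.
H2bc8, chr13:23571331-23571358, plus strand: tgagtcccttATTTGCATagaacctcta
H2ac8, chr13:23571331-23571358, minus strand: tagaggttctATGCAAATaagggactca
H2ac6, chr13:23684072-23684099, minus strand: gggtgggattATGCAAATgaagtttcca
CCAAT, also on both strands, was present in all of the H1, H2A, H2B and H3 windows of the clusters but in 3 of 12 H4 windows, giving 84.5% over the 58 cluster windows against 37.8% of all promoters. TATAAA was present in 56.9% of the cluster windows, in 1 of 8 somatic variant windows and in 14.1% of all promoters. In H1f2, a CCAAT stood at ccgctggagcaCCAATcagcgcgcgcct (chr13:23738742-23738769, plus strand), just upstream of the transcript. These matches are descriptions of letters in a window.

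The classes differed greatly in level. The 64 cluster genes together held 1224 and 1154 reads in the shScramble pair and 1333 and 1303 in the shYthdf2 pair, which was between 1.09% and 1.31% of all histone reads. The 33 variants held 110552 and 90185 reads in shScramble and 112935 and 97717 in shYthdf2, between 0.277% and 0.324% of all reads in a library. Of the cluster genes 63 had a read somewhere, but 38 averaged fewer than 10 reads per library and the median was 7.6. H2aw, which overlaps Trim17 on the same strand, had no reads, and the counting dropped reads that touched more than 1 gene. A gene without reads in a library was bounded by 3 reads there, or 0.0833 to 0.0952 CPM, a limit that covers counting error only. It takes reads as independent, although each read of a pair was counted, so it may be too low. Among germ-cell variants 18 of 24 had no reads in any library, and none of the 24 passed the filter on low counts.

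Near-identical copies limit what can be said of single cluster genes. Reads placed at several positions were not counted, and 49 of 63 cluster genes held at least 1 window of 150 bases that recurred in another transcript, the median gene in 32% of its windows. H1f2, H1f1, H1f3, H1f5 and H2bc21 had no such window. The share was 4.72% for H4c9, 17.4% for H2bc4 and 100% for H2ac19, H3c14 and H3c15, so the levels of many cluster genes are uncertain. Shares were taken over the longest GENCODE transcript, cut at the counted end only for genes with 1 counted interval. Those of H2bc4 and H3f3a thus include 428 and 1728 bases past the counted end and are not shares of the counted sequence. Copies also limit the somatic variants, with a share of 25.9% for H2az1, 4.38% for H3f3a and 0.127% for H3f3b. H2ax, H2az2, H1f10, H2aj and H1f0 had no such window. Among germ-cell variants without reads, the share was 100% for H2al1c, H2al1d, H2al1e, H2al1f, H2al1h, H2al1i, H2al2b and H2al2c. It was 52.4% to 83.1% for H2al1a, H2al1b, H2al1g, H2al1k and H2al1m, and 11.9% for H2bc1. H2al1j, H2al1n, H2al1o and H2al3 had no such window and no reads either. Where windows were shared, a lack of reads cannot be told apart from reads left out by the counting.

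Per length of counted exon, H2bc4 stood highest in the clusters at 11.1 RPKM over the 4 libraries, followed by H4c9 at 7.93 and H1f2 at 7.80. The next genes, H4c12 (2.73), H3c8 (2.32), H2ac8 (2.11), H3c3 (1.56) and H2ac10 (1.51), stood well below on this scale. On the same scale the 8 highest variants ran from 978 for H2az1 and 378 for H2ax through 297 for H3f3a, 285 for H3f3b, 58.3 for H2az2, 43.4 for H1f10 and 35.7 for H2aj to 22.2 for H1f0. All 8 were above the highest cluster gene, whereas H3f3c, at 0.678, and the germ-cell variants, at 0.16 or less, were below the leading cluster genes.

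**Figure D1:**
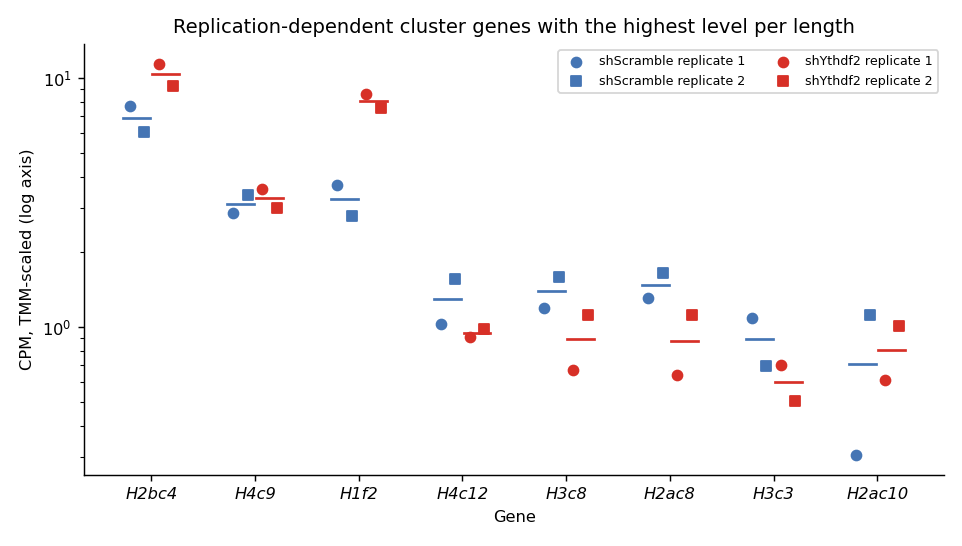
Level in CPM (log axis) of the 8 cluster genes with the highest level per length, with 1 point per library, blue for shScramble and red for shYthdf2, circles for replicate 1, squares for replicate 2 and bars for group means. In H2bc4 and H1f2 both red points lie above both blue points, and in H4c12, H3c8 and H2ac8 both lie below.

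Of the 105 histone genes, 44 passed the filter on low counts (31 cluster genes, 9 somatic variants, 3 pseudogenes and H2bfm) and were tested among 18341 genes. By the quasi-likelihood test of edgeR with Benjamini-Hochberg adjustment, 1 histone gene was higher in shYthdf2, H1f2, and 0 were lower, taking an adjusted p under 0.05 as the threshold. Over all tested genes 2.43% were called higher and 1.49% lower. At an unadjusted p under 0.05, 3 histone genes were higher (H1f2, H2bc4 and H3f3a) and 0 lower, against 11.0% higher and 9.80% lower over all tested genes. DESeq2 called 2 histone genes higher at an adjusted p under 0.05, H1f2 and H3f3a, and 0 lower, out of 17 histone genes to which it gave an adjusted p. Its calls over all genes with an adjusted p were 5.55% higher and 4.22% lower.

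H1f2 encodes the linker histone H1.2, which binds the nucleosome at the DNA entry and exit. It occupies a single exon on chromosome 13, between 23738807 and 23739531 on the plus strand. It had 133 and 88 reads in the control libraries and 294 and 270 in the knockdown libraries. Its mean was 3.24 ± 0.636 CPM in shScramble against 8.07 ± 0.746 CPM in shYthdf2 (SD, n = 2), and the groups did not overlap. The log2 fold change was 1.31 (SE 0.26, adjusted p = 0.028 in edgeR), a 2.48-fold higher level. It stayed past the threshold in all 11 other settings, between 1.13 and 1.53 with adjusted p from 8.3e-06 to 0.032. The shYthdf2 replicates stood at 8.60 and 7.55 CPM for H1f2, and their summed 2C-like markers at 105 and 269 CPM. A relation between these values was not tested.

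H2bc4 is an H2B gene that has an additional, spliced form in the annotation. Its counted exons lay on chromosome 13, with 1 interval ending at 23684667 and another from 23692176 to 23692480, 7508 bases further on, and the counts do not tell the forms apart. The libraries had 276 and 191 reads in shScramble and 389 and 332 in shYthdf2. Both shYthdf2 libraries were above both shScramble libraries, at 10.3 ± 1.49 against 6.86 ± 1.13 CPM (SD, n = 2). The log2 fold change of 0.59 (SE 0.23) had an unadjusted edgeR p of 0.027 and an adjusted p of 0.18, so it did not pass.

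The third gene of comparable level, H4c9, encodes histone H4. It had 103 and 106 reads with the scrambled hairpin and 122 and 107 after knockdown. The groups overlapped, and the log2 fold change was 0.08 (SE 0.30, adjusted p = 0.92 in edgeR).

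Below these, reads were few. H4c12 had 37 and 49 reads in the control libraries and 31 and 35 in the knockdown libraries, a log2 fold change of -0.45 (SE 0.44). H3c8 was read 43 and 50 times against 23 and 40 times, a log2 fold change of -0.63 (SE 0.46). H2ac8 was read 47 and 52 times against 22 and 40 times, a log2 fold change of -0.74 (SE 0.46). For these H4, H3 and H2A genes the shYthdf2 libraries all lay under the shScramble libraries, but the edgeR adjusted p-values were 0.62, 0.48 and 0.4. H3c3, with 39 and 22 against 24 and 18 reads, and H2ac10, with 11 and 35 against 21 and 36 reads, overlapped between the groups.

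A pair of genes with large differences on few reads was picked out after their values were seen. H1f1, which encodes the linker histone H1.1, had 52 and 47 reads with the scrambled hairpin and 2 and 30 after knockdown. Its log2 fold change was -1.69 (SE 0.78, adjusted p = 0.26 in edgeR), with the shYthdf2 libraries far apart. Without shYthdf2 replicate 2 it was -4.56 (adjusted p = 1.5e-04), a value that rests on the 2 reads of replicate 1. H2bc8, the H2B gene that shares its octamer with H2ac8, had 2 and 4 reads in the control libraries and 10 and 14 in the knockdown libraries. Its log2 fold change was 1.89 (SE 0.87, adjusted p = 0.25 in edgeR), while that of H2ac8 on the other side of the shared promoter was -0.74. H2bc8 reached 10 reads in the shYthdf2 libraries only, so the filter kept it through the group in which it was high.

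Over the 31 tested cluster genes, 9 had a positive and 22 a negative log2 fold change, with a median of -0.45, against a median of 0.002 over all tested genes. Fits without the filter covered 63 cluster genes, 16 with positive and 47 with negative values and a median of -0.52, where 49.89% of all genes with a read were positive. The groups did not overlap in 12 of the 31 tested genes. Of these, 3 were higher in shYthdf2 (H1f2, H2bc4 and H2bc8, 9.68%) and 9 lower (29%), where 26.2% of all tested genes were higher without overlap and 25.5% lower. The lower genes, of which 0 passed, were H4c12, H3c8, H2ac8, H1f1, H2bc22, H3c6, H1f3, H1f5 and H2bc21. The filter bears on these counts. Of the 31 genes, 10 reached 10 reads in both libraries of shScramble only, and all 10 had negative values, among them H1f1, H2bc22, H1f3 and H1f5 of the 9 lower genes. Another 3 reached it in both libraries of shYthdf2 only, H2bc8 among them. Of the 13 genes that reached it in both groups, 8 had negative values, with 2 higher and 5 lower without overlap. The cluster median was negative in every setting, from -0.62 without shScramble replicate 1 to -0.25 without shScramble replicate 2.

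**Figure D2:**
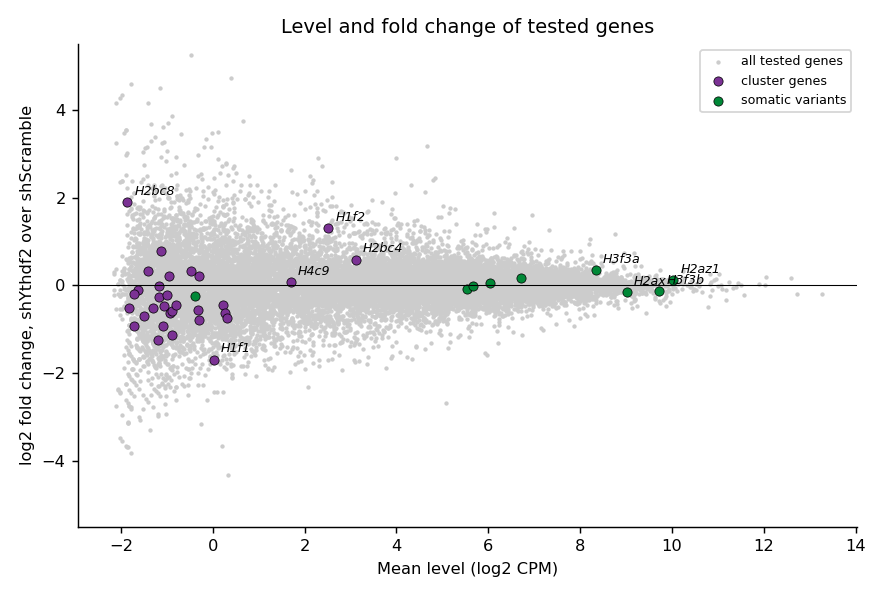
Mean level (log2 CPM) against log2 fold change of shYthdf2 over shScramble for all 18341 tested genes in grey, with cluster histone genes in purple and somatic variants in green. Most cluster genes sit at the low end, where fold changes of all genes spread widely, and H1f2 and H2bc4 lie apart from them at a higher level and a positive fold change.

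Summed over the 64 cluster genes, the level was 34.0 and 36.6 CPM in shScramble and 39.0 and 36.4 CPM in shYthdf2. The groups overlapped, with a log2 ratio of 0.09 (exact permutation p = 0.667, two-sided). This even sum was made up of unequal parts. Leaving out H1f2 gave a log2 ratio of -0.11 (exact permutation p = 0.667), and leaving out H1f2 and H2bc4 gave 22.6 and 27.8 CPM in shScramble and 19.0 and 19.6 CPM in shYthdf2. The last of these had a log2 ratio of -0.38, with both shYthdf2 libraries under both shScramble libraries (exact permutation p = 0.333, the smallest that 2 libraries against 2 can give). The genes left out were chosen after their values were seen.

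Whole families did not move together. The 5 H1 genes summed to 6.08 and 5.05 CPM in shScramble and 9.07 and 8.83 CPM in shYthdf2 (log2 ratio 0.69), and the 16 H2B genes to 11.38 and 11.36 CPM against 14.6 and 12.5 CPM (log2 ratio 0.25), both without overlap. Without their best-read members, left out after the values were seen, both sums had the opposite sign. The H1 genes other than H1f2 stood at 2.39 and 2.25 CPM in shScramble and 0.468 and 1.29 CPM in shYthdf2, a log2 ratio of -1.40. Most of these control reads came from H1f1, and the ratio was -0.85 without shYthdf2 replicate 1, -2.31 without shYthdf2 replicate 2 and -0.99 with H1f1 also left out. H2B genes other than H2bc4 stood at 3.72 and 5.30 CPM against 3.25 and 3.24 CPM. Their log2 ratio was -0.48, and -0.20 without shScramble replicate 2. H3 genes stood at 4.61 and 5.87 CPM against 4.01 and 3.66 CPM, again with both shYthdf2 libraries lower. H2A genes, at 5.41 and 6.47 CPM against 3.86 and 5.56 CPM, and H4 genes, at 6.50 and 7.87 CPM against 7.43 and 5.84 CPM, overlapped between the groups. No family sum could reach an exact permutation p under 0.333.

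**Figure D3:**
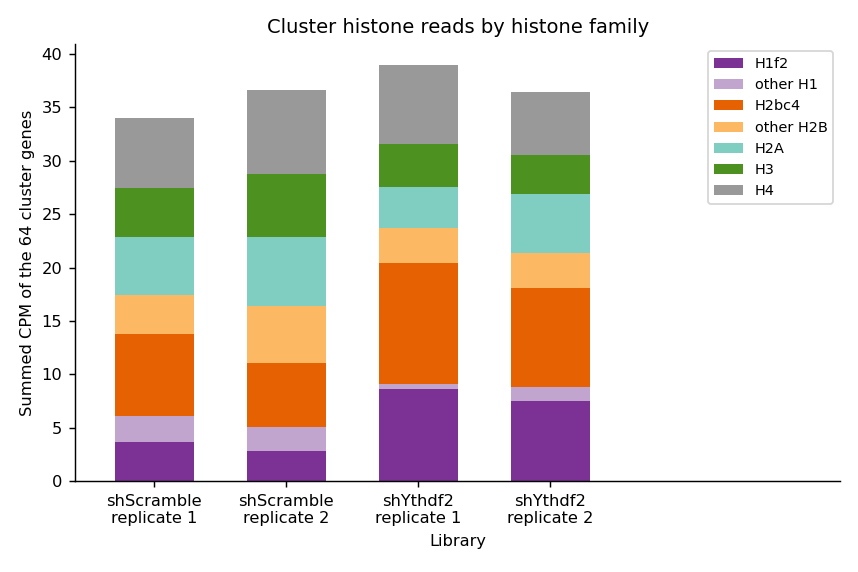
Summed CPM of the 64 cluster genes in each library, stacked by histone family with H1f2 and H2bc4 drawn apart from their families. The H1f2 and H2bc4 segments are taller in both shYthdf2 libraries while the total stays between 34.0 and 39.0 CPM.

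The 33 cluster genes that did not pass the filter held only 112 to 171 reads per library in all. Their sum was 4.50 and 5.43 CPM in shScramble and 4.01 and 3.13 CPM in shYthdf2, with a log2 ratio of -0.48 (exact permutation p = 0.333). H2ac15, for example, had 0 and 18 reads with the scrambled hairpin and 2 and 0 after knockdown, and H4c17 was read 3 times in 1 library and not in the others. At this depth differences in these genes were not detectable singly.

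Among the somatic variants 4 had a positive and 5 a negative log2 fold change, with a median of -0.01. Against 2.43% of all tested genes called higher and 1.49% lower, 0 of the 9 passed the adjusted threshold. Their values per library were far above the floor, and standard errors were between 0.10 and 0.15 on the log2 scale for all but H3f3c, which had 21 to 31 reads. H3f3a and H2az2 had both shYthdf2 libraries above both shScramble libraries (22.2% of the 9 genes, against 26.2% of all tested genes). Lower throughout were 0 of the 9, against 25.5% of all tested genes.

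H3f3a and H3f3b encode the same protein, histone H3.3, which is deposited outside replication by HIRA and by DAXX with ATRX. H3f3a (chromosome 1, 180802560 to 180813605, minus strand) had 10025 and 9135 reads in the control libraries and 12838 and 12428 in the knockdown libraries. This was 284 ± 8.20 CPM against 361 ± 20.0 CPM (SD, n = 2). The log2 fold change was 0.35 (SE 0.10, edgeR unadjusted p = 0.0068, adjusted p = 0.091), which did not pass, although DESeq2 gave an adjusted p of 0.028. Without shYthdf2 replicate 2 it was 0.40 and passed (adjusted p = 0.0062). H3f3b, on chromosome 11 from 116021961 to 116026039, had 34618 and 24994 reads with the scrambled hairpin and 31509 and 24412 after knockdown. Its groups overlapped and its log2 fold change was -0.13 (SE 0.15, adjusted p = 0.68 in edgeR).

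On the scale per length, H3f3a made up 44.0% and 49.7% of the H3.3 reads in shScramble and 52.5% and 58.0% in shYthdf2 (exact permutation p = 0.333). The sum of both genes was 1240 and 1083 CPM in shScramble and 1297 and 1029 CPM in shYthdf2, a log2 ratio of 0.00. Thus the share of H3f3a did not overlap between the groups while the H3.3 sum did. The deposited H3f3a exons end 1728 bases before the end of the longest GENCODE transcript used here, and reads in that stretch were not counted. The pseudogene H3f3a-ps1 had 78 and 67 reads in the control libraries and 104 and 91 in the knockdown libraries, and reads could be split between such copies and the gene.

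The H2A.Z genes were both slightly above the control in value, without passing. H2az1, the most abundant histone gene per length, encodes H2A.Z.1 and had 38059 and 29715 reads with the scrambled hairpin and 39680 and 36545 after knockdown. Its log2 fold change was 0.13 (SE 0.11, adjusted p = 0.58 in edgeR) and its groups overlapped. H2az2, which encodes H2A.Z.2, was read 3535 and 3170 times against 3984 and 3789 times, a log2 fold change of 0.16 (SE 0.11, adjusted p = 0.43 in edgeR). H2az2 made up between 5.21% and 5.94% of the H2A.Z reads per length in the 4 libraries, with overlap between the groups.

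H2ax encodes H2A.X, the variant phosphorylated at DNA breaks. It had 18862 and 17635 reads in the control libraries and 19011 and 15083 in the knockdown libraries, a log2 fold change of -0.15 (SE 0.13, adjusted p = 0.58 in edgeR). The value of H2ax rested on a single library, since without shYthdf2 replicate 1 it was -0.36 (adjusted p = 0.028) and without shYthdf2 replicate 2 it was 0.04. The same held for H3f3b, at -0.36 (adjusted p = 0.023) and 0.07. The replacement linker histones H1f0 and H1f10 had log2 fold changes of -0.01 (SE 0.13) and -0.08 (SE 0.15), and H2aj had 0.05 (SE 0.13), each with overlapping groups.

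**Figure D4:**
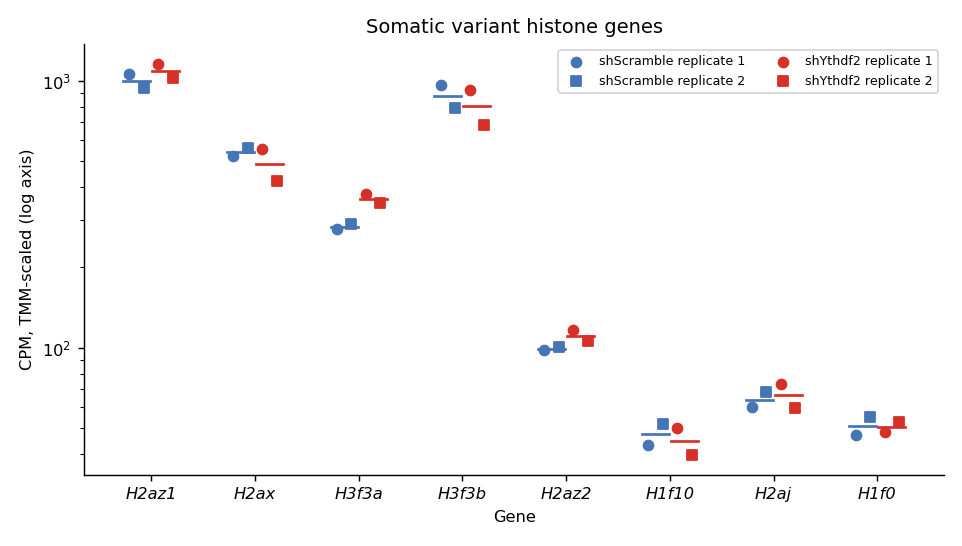
Level in CPM (log axis) of the 8 somatic variant genes with the highest level per length, with 1 point per library, blue for shScramble and red for shYthdf2, circles for replicate 1, squares for replicate 2 and bars for group means. The colours separate in H3f3a and H2az2 and mix in the other genes.

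Summed over the 33 variants, the level was 3070 and 2863 CPM in shScramble and 3304 and 2731 CPM in shYthdf2, a log2 ratio of 0.02 (exact permutation p = 1.000). Of the variants outside the 105 genes, Macroh2a1 had a log2 fold change of -0.16 (SE 0.11), Macroh2a2 of -0.22 (SE 0.12) and Cenpa, the centromeric H3, of -0.03 (SE 0.11), and 0 of these 3 passed. H2bfm, with no class, had 118 and 66 reads with the scrambled hairpin and 87 and 28 after knockdown, with overlap.

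**Figure D5:**
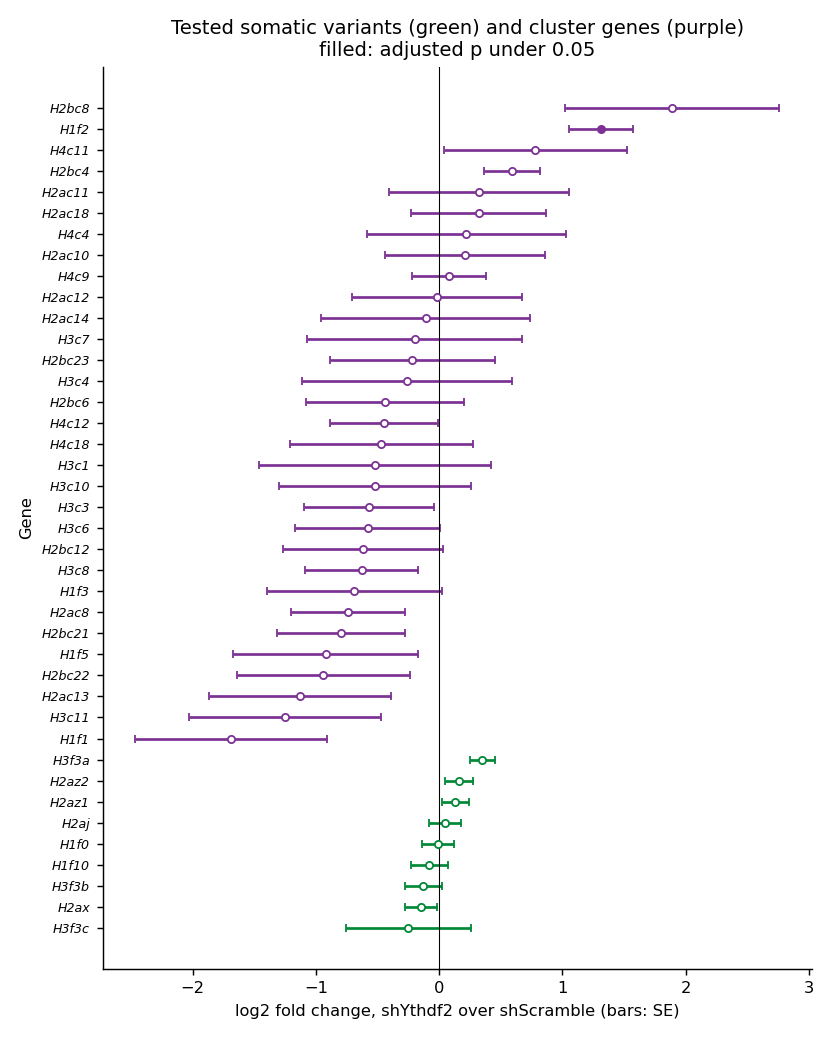
Log2 fold change of shYthdf2 over shScramble, with its standard error, for the 31 tested cluster genes (purple) and the 9 somatic variants (green), ordered by value within each class. H1f2 is the only filled point, which marks an adjusted p under 0.05, and the bars of most cluster genes are several times as wide as those of the variants other than H3f3c.

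The machinery that makes and removes histone mRNA was read from a list of 29 factors. All 29 were tested, 10 with positive and 19 with negative values and a median of -0.06, and 1 was called higher (3.4%, against 2.43% of all tested genes) and 0 lower. The call was Zfp473, the zinc finger protein ZFP100 of the U7 snRNP complex that cleaves histone pre-mRNA. It had 767 and 693 reads in the control libraries and 1045 and 1520 in the knockdown libraries, a log2 fold change of 0.75 (SE 0.17, adjusted p = 0.043 in edgeR), and it no longer passed without shYthdf2 replicate 2 (0.50, adjusted p = 0.07), with library totals (adjusted p = 0.054) or in limma-voom (adjusted p = 0.051). Npat, the coactivator of histone cluster transcription, was read 3148 and 2727 times against 1943 and 2463 times. Its log2 fold change of -0.47 (SE 0.12, edgeR unadjusted p = 0.0034, adjusted p = 0.065) did not pass, but did in 4 of 11 other settings, at -0.61 without shYthdf2 replicate 2 (adjusted p = 5.7e-04) for example. Slbp, whose product binds the stem-loop, had a log2 fold change of -0.11 (SE 0.11) with overlapping groups. The U7 snRNP components Lsm10 and Lsm11 had 0.08 (SE 0.16) and 0.11 (SE 0.16), Casp8ap2 -0.13 (SE 0.14), and the decay factors Eri1 and Upf1 -0.12 (SE 0.11) and -0.06 (SE 0.10). At an unadjusted p under 0.05, 4 processing factors were lower (13.8%, against 9.80% of all tested genes), namely Npat, Lsm1, Tut4 and Cpsf3, of which Lsm1 and Tut4 act in decay of histone mRNA.

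Chaperones, which carry histones to chromatin, gave 0 calls among 33 tested genes, against 2.43% of all tested genes called higher and 1.49% lower. Their values were 18 positive and 15 negative, with a median of 0.00. Daxx, the H3.3 chaperone, had 3517 and 2600 reads with the scrambled hairpin and 4340 and 4230 after knockdown. Its log2 fold change was 0.44 (SE 0.12, edgeR unadjusted p = 0.0039, adjusted p = 0.07), and it passed in 5 of 11 other settings, among them without shScramble replicate 1 (0.57, adjusted p = 0.026) and without shYthdf2 replicate 2 (0.49, adjusted p = 0.0027). Its partner Atrx had -0.26 (SE 0.16) with overlapping groups, and -0.56 (adjusted p = 9.2e-05) without shYthdf2 replicate 2, and Hira had 0.02 (SE 0.11). For the replication-linked chaperones, log2 fold changes were 0.06 for Chaf1a, 0.00 for Chaf1b, 0.28 for Asf1a, 0.09 for Asf1b and -0.16 for Nasp, none of them past the threshold. At an unadjusted p under 0.05 Daxx was the 1 higher gene (3.0%, against 11.0% of all tested genes) and Anp32e, Hjurp and Dek were the 3 lower genes (9.1%, against 9.80%), Anp32e and Hjurp being chaperones of H2A.Z and CENP-A.

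Since cluster genes are transcribed in S phase, 25 genes of that phase were set beside them. They had 10 positive and 15 negative values and a median of -0.07. Of the 25, 1 was called higher (4.0%, against 2.43% of all tested genes) and 0 lower (against 1.49%). The call was Tyms, thymidylate synthase, with 2344 and 2001 control reads and 3399 and 3152 knockdown reads (log2 fold change 0.54, SE 0.11, adjusted p = 0.032 in edgeR), and without shScramble replicate 2 it missed the threshold (0.53, adjusted p = 0.065). At an unadjusted p under 0.05, 5 S phase genes were higher (Tyms, Ccne1, Pola1, Fen1 and Mcm3), which is 20.0% of the list against 11.0% of all tested genes. The part of the cell cycle in the histone values was not tested.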

How the data were processed

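The authors deposited raw read counts per gene for the 4 libraries, not normalized and not pooled. Per the file headers they were made with featureCounts 2.0.3 over RefSeq exons of mm10, and the submitters' processing notes also list fastp 0.19.4, HISAT2 2.2.1 and DESeq2 1.40.2. Each read of a pair was counted, no strand option was set, and reads at several positions or over several genes were left out. The study describes its replicates as biological. RNA was selected for poly(A), which leaves out most cluster histone mRNA.

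Members, gene lists and comparisons were chosen with earlier results of these data known. Counts were tested with edgeR 4.0.16 (R 4.3.3) by a two-sided quasi-likelihood F test. Settings were TMM scaling, filterByExpr with minimum count 10 and minimum total 15, and Benjamini-Hochberg adjustment over 18341 genes. This procedure was tested on simulated data. Changes there were put only into well-read genes, so detection in genes with few reads was not tested. The biological coefficient of variation was 15.8%. CPM were scaled by TMM and levels between genes divided by the deposited length. Single values were compared by an exact permutation test over libraries. Named genes were Ythdf2, members called, the 8 cluster and 8 variant genes highest per length, members with an unadjusted p under 0.05, and set companions with their calls. Alternatives were RLE scaling, library totals, no filter, DESeq2 1.42.0, limma-voom (limma 3.58.1), halved counts, a replicate block, each library left out, the study's DESeq2 criteria and other class limits. Cluster and family sums without H1f2, H2bc4 or H1f1, and family sums with each library left out, were added after the values were seen. GENCODE gave 95 members a transcript. The authors deposited gene lengths as other values beside the counts. One result of the S phase list is not reported here.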

Additional observations from a re-analysis of the deposited data

How the results depend on the processing

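H1f2 passed in all 11 other settings of the test. The 1 higher and 0 lower histone genes became 2 and 1 without the filter (H3f3a added, H1f1 lower), 2 and 0 in DESeq2, and ranged from 1 to 2 and from 0 to 3 when each library was left out, where the lone library of a group is taken to vary like the other group. They stayed at 1 and 0 by the criteria of the study. With the replicate number as a block, 3 were higher (H1f2, H2bc4 with adjusted p = 0.02, and H3f3a with 0.0049) and 1 lower (H1f1). The labels tie no numbers to a batch, and deviations of same-numbered libraries correlated at 0.23 over all tested genes, with only 2 pairs. For processing factors, higher calls fell to 0 with library totals and limma-voom and ranged from 0 to 1 with a library left out, and lower calls were 1 without the filter, 1 in DESeq2, 4 with the block and 0 to 1 with a library left out. For chaperones, higher calls were 1 without the filter, in DESeq2 and with the block, lower calls were 2 in DESeq2 and 3 with the block, and leaving out a library gave 0 to 1 and 0 to 2. For S phase genes, higher calls were 4 without the filter, 3 in DESeq2, 5 with the block and 0 to 3 with a library left out, and 1 gene was lower with the block. With a library left out, medians ranged from -0.11 to -0.05 for processing factors and from -0.03 to 0.06 for chaperones. The cluster sum gave log2 ratios of -0.11 without H1f2 and -0.38 without H1f2 and H2bc4. The cause of these differences was not tested. Shares called over all genes are given only for the main fit (2.43% higher, 1.49% lower) and DESeq2 (5.55% higher, 4.22% lower). In the other settings the counts of calls are not set against the calls over all genes, so a rise is not particular to a list. Direction did not turn for the cluster median in any setting, whereas the variant median, near 0, ranged from -0.11 to 0.08. Of the 64 cluster genes 38 averaged fewer than 10 reads per library, which limits what could be detected.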
